A study of Homo sapiens with 6 samples.

Results

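The integrin and laminin genes of a human esophageal squamous cell carcinoma (ESCC) line were described across the line and a derivative in which the gene of NRF2 was disrupted. The members were taken by gene symbol, as the symbols of the integrin alpha and beta chains and of the laminin alpha, beta and gamma chains, which gave 38 of the 58884 genes in the table. They comprised 18 integrin alpha, 8 integrin beta, 5 laminin alpha, 4 laminin beta and 3 laminin gamma genes, and no symbol was repeated. The set was chosen with earlier results of these data known. RNA sequencing compared KYSE70, an established ESCC cell line whose NFE2L2 gene carries a mutation, with NRF2null-KYSE70, which the study derived from it by CRISPR-Cas9 cutting of NFE2L2 and single-cell cloning. NFE2L2 encodes the transcription factor NRF2, and the comparison asked how gene expression differed once it was disrupted. The study stated that the loss of NRF2 in the derivative was not complete. It found a faint NRF2 band of lower weight there, and NFE2L2 transcript variants that encode smaller isoforms. Both lines were grown untreated in RPMI1640 medium with serum and antibiotics, and each had 3 libraries. The derivative was 1 clone, so a difference between the lines was a difference between this clone and its parent. Nothing stated that the libraries of a line came from separate cultures, so p-values measured only the spread between these libraries.

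Integrins are receptors made of 1 alpha and 1 beta chain that span the plasma membrane and tie the matrix outside the cell to the cytoskeleton inside it. Laminins are secreted trimers of 1 alpha, 1 beta and 1 gamma chain and form the sheet of the basement membrane on which epithelial cells sit. In squamous epithelium the basal cells are anchored by hemidesmosomes, in which the integrin made of ITGA6 and ITGB4 holds a laminin that contains the LAMA3 and LAMB3 chains.

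The libraries held 52072801 to 63975313 reads in genes, and values are normalized counts, that is, reads divided by 1 size factor per library. A gene was tested when its mean over the 6 libraries was at least 10, which 15994 genes reached. It was called at a limma adjusted p under 0.05, and was said to pass both cut-offs when the log2 fold change, given throughout as NRF2null-KYSE70 over KYSE70, also reached 1 in size. The targeted gene, NFE2L2, had 9839, 9906 and 10039.8 normalized counts in KYSE70 and 5803, 6041 and 6434 in NRF2null-KYSE70, a log2 fold change of -0.71 (standard error 0.0495, adjusted p = 9.37e-08 by limma). Of 12 squamous markers, 4 were higher (KRT6A, KRT17, EPCAM and CDH1) and 7 lower (KRT5, TP63, SFN, S100A2, DSG3, DSC3 and PERP). The summed level of the 12, of which KRT5 was the largest part, was 391931 to 396591 in KYSE70 and 294492 to 301019 in NRF2null-KYSE70. Of 9 fibroblast, 6 endothelial and 9 blood cell markers, 6, 4 and 7 had a mean under 10. The summed fibroblast markers, mostly THY1, were at 3851 to 3973 in KYSE70 and 3039 to 3454 in NRF2null-KYSE70. THY1 itself was higher (log2 fold change 0.15), and COL1A1 (-1.16) and COL3A1 (-4.79) were lower. The summed endothelial markers were at 138 to 159 and 293 to 499, with VWF (log2 fold change 1.28) and TEK (2.22) higher. The part of other cell types in the results was not tested. In bulk RNA, fewer cells that express a gene and less RNA per cell cannot be told apart.

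Of the 38 members, 25 were tested, and more of these were higher than lower in NRF2null-KYSE70. There were 13 members higher and 7 lower, beside 57.6% of all tested genes called, 29.3% higher and 28.3% lower, and 5 members were not called. Both cut-offs were passed by 10 members, 7 higher and 3 lower, beside 14.7% of all tested genes in either direction (7.23% higher and 7.43% lower). The lines did not overlap, meaning that every library of one line lay above every library of the other, for 21 of the 25 tested members and for 63.4% of all tested genes. The median log2 fold change was 0.85 over the tested members and -0.01 over all tested genes. The direction was uneven between the families. Of 15 tested integrin genes, 9 were higher, 3 were lower and 3 were not called, with a median of 0.89. Of 10 tested laminin genes, 4 were higher, 4 were lower and 2 were not called, with a median of -0.04. The summed normalized count of the 26 integrin genes went from a range of 89902 to 98145 in KYSE70 to 180615 to 209286 in NRF2null-KYSE70, whereas that of the 12 laminin genes went from 64234 to 74801 to 79494 to 94279.

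**Figure D1:**
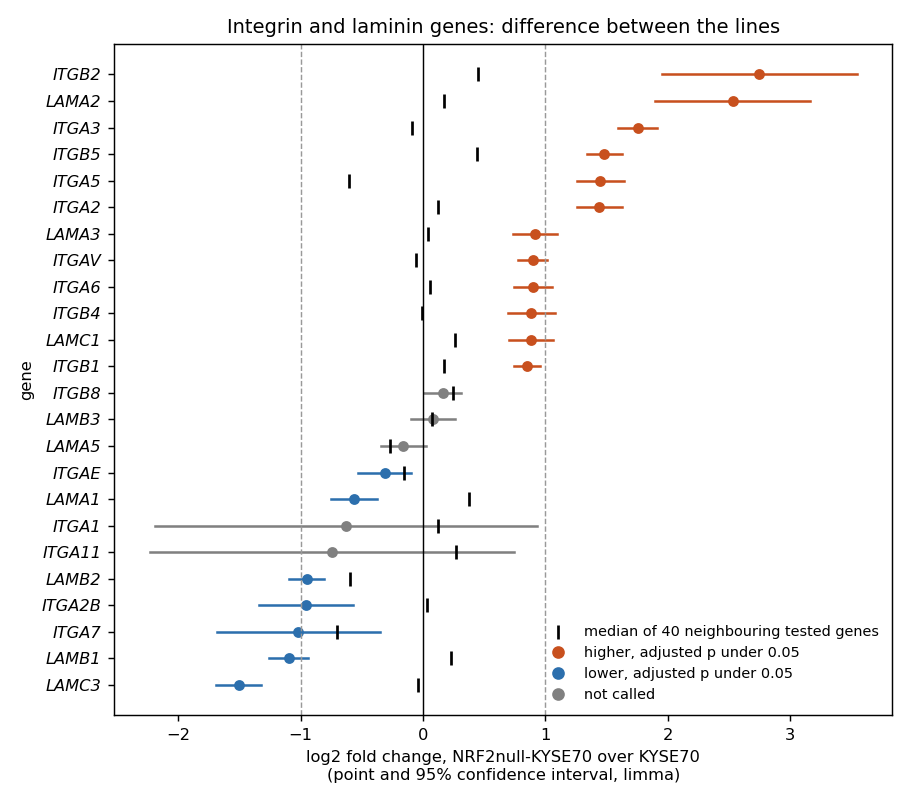
Log2 fold change of the tested integrin and laminin genes reported here, NRF2null-KYSE70 over KYSE70, with the 95% confidence interval from limma on the horizontal axis and genes in order of fold change on the vertical axis. Orange points were higher, blue points lower and grey points not called at an adjusted p of 0.05, dashed lines mark the cut-offs at 1 and -1, and black ticks give the median of the 40 nearest tested genes on the chromosome. ITGB2 at 2.75 and LAMC3 at -1.51 are the ends of the range.

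**Figure D2:**
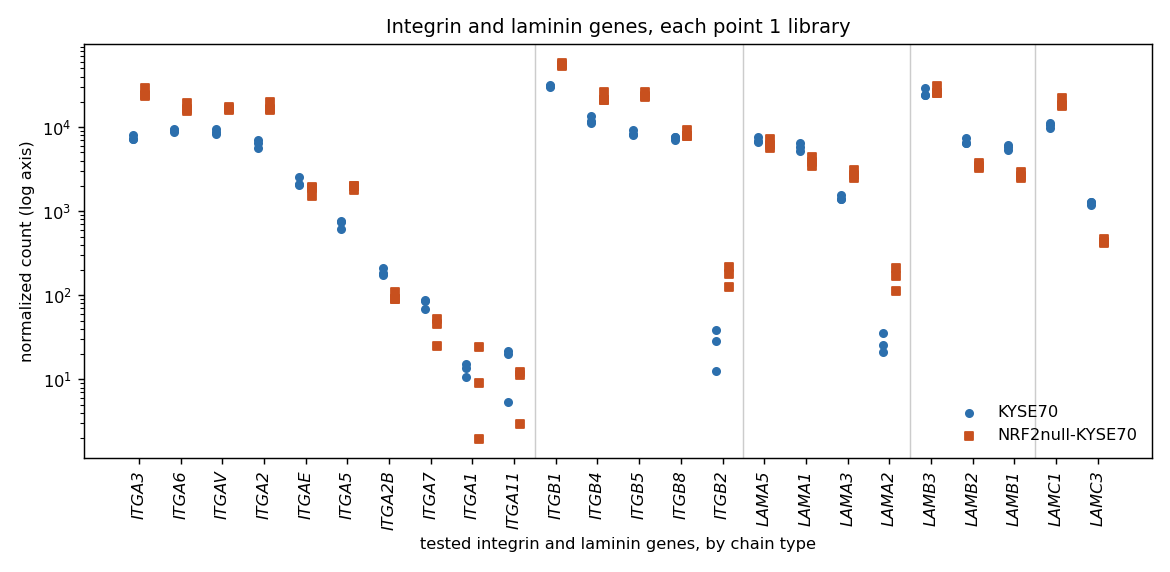
Normalized counts of the tested members reported here on a log axis, with 1 point per library, circles for KYSE70 and squares for NRF2null-KYSE70, genes grouped by chain type and ordered by level. The circles and squares of ITGA3, ITGB5 and LAMC3 are far apart, whereas those of LAMB3 and LAMA5 share a range.

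The abundant laminin-binding integrins were higher in NRF2null-KYSE70, ITGA3 the most. ITGA3 (ENSG00000005884, hg38 chromosome 17 from 50055968 to 50090481) encodes the alpha chain that pairs with the ITGB1 chain to bind laminin. Its normalized counts were 8065, 7299 and 7298 in KYSE70 and 28930.5, 23969.7 and 23787 in NRF2null-KYSE70. The lowest library of the derivative thus lay well above the highest of the parent, and the gene rose by 1.75 on the log2 scale (standard error 0.0721, adjusted p = 7.19e-10 by limma), a fold of 3.38. ITGA6 (chromosome 2 from 172427354 to 172506459) encodes the alpha chain of the hemidesmosome. It had 9594, 9303 and 8651 normalized counts in KYSE70 and 19388, 16272 and 15761 in NRF2null-KYSE70, and its log2 fold change was 0.90 (standard error 0.0717, adjusted p = 3.25e-07 by limma). ITGB4 (chromosome 17 from 75721328 to 75757818), the beta chain that pairs with ITGA6 alone, had 13723, 11904 and 11058 normalized counts against 26014, 20998 and 20901, a log2 fold change of 0.89 (standard error 0.0889, adjusted p = 2.61e-06 by limma). Both chains of the hemidesmosomal integrin were therefore higher without overlap and by nearly the same fold. ITGB1 (chromosome 10 from 32887273 to 33005792), the beta chain shared by most receptors of laminin, collagen and fibronectin, had 30718, 31558 and 29968 normalized counts in KYSE70 and 58264, 54245 and 53597 in NRF2null-KYSE70. Its log2 fold change was 0.85 (standard error 0.0485, adjusted p = 1.47e-08 by limma). ITGA7, a laminin-binding alpha chain best known from muscle, was low, at 68.0 to 88.6 normalized counts in KYSE70 and 25.1 to 52.7 in NRF2null-KYSE70, and fell by 1.02 on the log2 scale (standard error 0.306, adjusted p = 0.0122 by limma). It was the only laminin-binding alpha chain among those tested (ITGA3, ITGA6 and ITGA7) that was lower.

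Of the alpha chains that bind collagen, ITGA2 rose and ITGA10 was all but absent in NRF2null-KYSE70. ITGA2 (chromosome 5 from 52989340 to 53094779), the collagen receptor of epithelia and platelets, had 6996, 6415 and 5708 normalized counts in KYSE70 and 19788, 16238 and 15957 in NRF2null-KYSE70. The lines were well apart, with a log2 fold change of 1.44 (standard error 0.0854, adjusted p = 2.04e-08 by limma). ITGA10, a collagen receptor of cartilage, was under the minimum for testing. It had 13, 20 and 15 reads in the KYSE70 libraries and 1, 1 and 0 in the NRF2null-KYSE70 libraries, a ratio of 21.8 (95% exact interval 5.71 to 185, which covers counting error only). ITGA1 and ITGA11, both known from mesenchymal cells, had 1.96 to 24.3 and 2.94 to 21.8 normalized counts over the 6 libraries. Neither was called (limma adjusted p = 0.476 and 0.377). Their confidence intervals, -2.19 to 0.93 and -2.24 to 0.75 on the log2 scale, reached from decreases of several fold to smaller increases. Without NRF2null-KYSE70 library 2 the fold change of ITGA1 turned to 0.18. ITGA1 shares 2.69% of its exon bases with PELO on the same strand, a gene with a mean of 2587 normalized counts, so its few reads could not be assigned with certainty.

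Receptors of the RGD motif, the short peptide in fibronectin, vitronectin and latent TGF-beta, rose where they were abundant, except for ITGB8. ITGB5 (chromosome 3 from 124761948 to 124901418), which pairs with ITGAV to bind vitronectin, had 9333, 8166 and 8293 normalized counts in KYSE70 and 26354, 23269.6 and 22524 in NRF2null-KYSE70. Its log2 fold change was 1.48 (standard error 0.0666, adjusted p = 1.62e-09 by limma), the largest among beta chains with a mean of at least 100. ITGA5 (chromosome 12 from 54395261 to 54419266), the alpha chain of the classical fibronectin receptor, had 757, 621 and 747 normalized counts against 2003, 1800.4 and 1991. Every NRF2null-KYSE70 library was above every KYSE70 library, and its log2 fold change was 1.45 (standard error 0.0882, adjusted p = 2.56e-08 by limma). ITGAV (chromosome 2 from 186590010 to 186680901), the alpha chain that ITGB5 and ITGB8 share, had 8839.96, 9484 and 8335 normalized counts against 17320.0, 16243 and 16064, a log2 fold change of 0.90 (standard error 0.0549, adjusted p = 2.69e-08 by limma). ITGB8, which with ITGAV binds latent TGF-beta, had 7692, 7599 and 6946 normalized counts in KYSE70 and 9313, 7759 and 7836 in NRF2null-KYSE70. Its libraries did not overlap but lay close, and it was not called (log2 fold change 0.16, 95% confidence interval 0.01 to 0.31, limma adjusted p = 0.0672). Leaving out NRF2null-KYSE70 library 2 or 3 gave it an adjusted p of 0.0405 or 0.0479, whereas its log2 fold change was 0.075 without library 1 of that line. ITGA2B, the alpha chain of the platelet fibrinogen receptor, had 213, 173 and 182 normalized counts in KYSE70 and 90.3, 90.2 and 111 in NRF2null-KYSE70, and fell by 0.96 on the log2 scale (standard error 0.177, adjusted p = 0.000473 by limma). Its beta partner ITGB3 had 16 reads in the 3 KYSE70 libraries and 7 in those of NRF2null-KYSE70. ITGB6, an epithelial partner of ITGAV, had 0 and 3 reads, and ITGA8 had 0 reads in every library. A count of 0 in a library allows up to 3 reads.

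The integrins of blood cells were scarce, apart from ITGAE and, in NRF2null-KYSE70, ITGB2. ITGB2 (chromosome 21 from 44885953 to 44931989), the common beta chain of leukocyte integrins, had 38.2, 29.0 and 12.7 normalized counts in KYSE70 and 179.5, 216 and 124 in NRF2null-KYSE70. Even the lowest value in the derivative was over the highest in the parent, and it rose by 2.75 on the log2 scale (standard error 0.367, adjusted p = 3.34e-05 by limma), which was the largest fold change among tested members and came from few reads. The alpha chains that pair with it were not detected at a comparable level: ITGAL had 15 and 11 reads in the 3 libraries of KYSE70 and of NRF2null-KYSE70, ITGAM 13 and 8, ITGAX 12 and 11, and ITGAD 0 and 1. Among the blood cell markers, whose list included ITGAL, ITGAM and ITGB2, PTPRC had 0 to 1.05 normalized counts in KYSE70 and 40.2 to 47.9 in NRF2null-KYSE70, SPI1 was at 0 in all libraries, and the summed level was 29.5 to 46.2 and 199 to 258. ITGAE, the alpha chain of a receptor for E-cadherin on lymphocytes, had 2042, 2096 and 2541 normalized counts in KYSE70 and 1534, 1953 and 1890.5 in NRF2null-KYSE70. The ranges nearly met, and it fell by 0.31 on the log2 scale (standard error 0.101, adjusted p = 0.0174 by limma), a call that was lost without KYSE70 library 3 (adjusted p = 0.0917) and in limma without the variance trend (adjusted p = 0.104). Of its exon bases, 6.47% overlap HASPIN on the opposite strand (mean 1706 normalized counts), and whether counting used strand was not given in the sources used here. ITGB7, the partner of ITGAE, had 8 and 6 reads, and 42.3% of its exon bases overlap ZNF740. ITGA4, which pairs with ITGB1 or ITGB7, had 5 and 7 reads, and ITGA9, which pairs with ITGB1, had 4 and 1.

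Of the laminin chains of the hemidesmosome, LAMA3 was higher and LAMB3 was not called. LAMA3 (chromosome 18 from 23689453 to 23956222), the alpha chain that the hemidesmosomal integrin binds, had 1567, 1391 and 1409.9 normalized counts in KYSE70 and 3109.8, 2662 and 2485 in NRF2null-KYSE70, a log2 fold change of 0.91 (standard error 0.0834, adjusted p = 1.10e-06 by limma). LAMB3 (chromosome 1 from 209614870 to 209652425), the beta chain, was the most abundant laminin transcript per kilobase, with 28829, 24305 and 24216 normalized counts in KYSE70 and 31058, 25515 and 25350 in NRF2null-KYSE70. Its ranges overlapped, and the log2 fold change of 0.08 was not called (limma adjusted p = 0.427), with a 95% confidence interval of -0.10 to 0.26 that leaves out a change of the size seen in LAMA3.

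Promoter windows from RefSeq (GRCh38.p14, 250 bases before to 50 after a start site) were found for 26 of the 38 members, in 33 windows, but not for ITGA3, ITGA7, ITGA9, ITGAD, ITGAL, ITGAX, ITGB2, ITGB3, ITGB4, LAMA1 or LAMC3 among others. They were searched on both strands for TGANTCA, the site of AP-1 factors, and for TGACNNNGC, the core of the antioxidant response element to which NRF2 binds. TGANTCA occurred in 7.71% of all 35116 windows and in 3 of the 33 member windows, of LAMA3, LAMB3 and ITGA5. TGACNNNGC occurred in 13.3% of all windows and in 4 of the 33 member windows, of ITGB5, ITGB1, ITGA1 and ITGA8. These shares were not compared by a test. The stretches below are shown because they belong to the laminin chains of the hemidesmosome and to the beta chains that rose, with the motif in capitals and the strand of the gene read 5′ to 3′. Those with TGACNNNGC were thus chosen by outcome. The matches of ITGA1, which was not called, and of ITGA8, which had 0 reads, are not shown. The ITGA5 match to TGANTCA, in a gene that rose, is not shown either. The LAMA3 stretches (chr18:23872885-23872911 and chr18:23872941-23872967, plus strand) lie in introns of LAMA3, before a start site within the gene, the LAMB3 stretch (chr1:209651425-209651451, minus strand) lies in an intron of LAMB3, the ITGB5 stretch (chr3:124901607-124901635, minus strand) lies outside genes, and the ITGB1 stretch (chr10:32958409-32958437, minus strand) lies in an exon of ITGB1-DT. A match is a description of the letters and not evidence of binding.
LAMA3, distal: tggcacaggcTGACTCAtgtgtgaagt
LAMA3, proximal: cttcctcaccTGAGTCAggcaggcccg
LAMB3: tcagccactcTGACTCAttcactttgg
ITGB5: atggagaaggTGACCAGGCatccagattg
ITGB1: cgggccgggcTGACGCGGCgggagaggaa

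The AP-1 match stood in windows of chains that rose (LAMA3 and ITGA5) and of a chain that was not called (LAMB3). The distal LAMA3 stretch and the LAMB3 stretch carry the same 7 letters, TGACTCA. Whether the match goes with a change in level was not tested.

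Among the other laminin chains, LAMC1 rose and LAMC3, LAMB1, LAMB2 and LAMA1 fell. LAMC1 (chromosome 1 from 183023420 to 183145592), the gamma chain of most laminins, had 11354, 10486 and 9737 normalized counts in KYSE70 and 22447, 17839 and 18183 in NRF2null-KYSE70, a log2 fold change of 0.88 (standard error 0.0817, adjusted p = 1.25e-06 by limma). Its lowest NRF2null-KYSE70 library was above its highest KYSE70 library. LAMC3 (chromosome 9 from 131009174 to 131094473), a gamma chain of limited distribution, had 1271, 1188 and 1293 normalized counts against 471, 419 and 428. It fell by 1.51 on the log2 scale (standard error 0.0852, adjusted p = 1.33e-08 by limma), the largest decrease among tested members. LAMB1 (chromosome 7 from 107923799 to 108003213), the beta chain of early basement membranes, had 6139, 5833 and 5278 normalized counts against 2940.4, 2477 and 2639, a decrease of 1.10 (standard error 0.0723, adjusted p = 5.24e-08 by limma). LAMB2 (chromosome 3 from 49121114 to 49133118), which replaces LAMB1 in mature membranes of muscle and kidney, had 7343, 6400.4 and 6519.9 normalized counts against 3729.5, 3289.9 and 3444, a decrease of 0.95 (standard error 0.0649, adjusted p = 7.20e-08 by limma). LAMB1 and LAMB2 were thus both lower in every NRF2null-KYSE70 library than in any KYSE70 library. LAMB4 was under the minimum for testing, with 14 and 24 reads in the 3 libraries of each line.

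The laminin alpha chains other than LAMA3 did not share a direction. LAMA1, the alpha chain of the embryonic basement membrane, had 6419, 5778 and 5232 normalized counts in KYSE70 and 4399.97, 3489 and 3904 in NRF2null-KYSE70, and fell by 0.56 on the log2 scale (standard error 0.0863, adjusted p = 0.000104 by limma). LAMA2, the alpha chain of muscle, rose from a low level, from 35.6, 25.4 and 21.1 to 114, 209 and 171 normalized counts. Its lines did not overlap, and the log2 fold change was 2.53 (standard error 0.292, adjusted p = 9.00e-06 by limma). LAMA5, the most widespread alpha chain of adult epithelia, had 7726, 6812 and 6656 normalized counts against 7272, 5688 and 6065, with overlapping ranges. It was not called (log2 fold change -0.16, 95% confidence interval -0.34 to 0.02, limma adjusted p = 0.119), but without NRF2null-KYSE70 library 1 its fold change was -0.26 (adjusted p = 0.000561). LAMA4, known from endothelium, had 1 read in all.

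Ratios of 2 chains within a library do not depend on the size factor, and 9 were compared, of which 7 are given here. With 3 libraries against 3 the two-sided exact permutation test over libraries cannot go below 0.1, so none of them could pass a threshold of 0.05. LAMB3 over LAMA3 was 17.2 to 18.4 in KYSE70 and 9.58 to 10.2 in NRF2null-KYSE70 (exact p = 0.1, 0.112 after adjustment over the 9 ratios). LAMA5 over LAMA3 was 4.72 to 4.93 and 2.14 to 2.44, and LAMB2 over LAMB1 was 1.10 to 1.24 and 1.27 to 1.33. Among the integrins, ITGA3 over ITGA6 was 0.785 to 0.844 in KYSE70 and 1.47 to 1.51 in NRF2null-KYSE70. These laminin and integrin ratios, and those of ITGA2 over ITGA3 (0.782 to 0.879 and 0.671 to 0.684) and ITGAV over ITGA5 (11.2 to 15.3 and 8.07 to 9.02), did not overlap between the lines, and each had an exact permutation p of 0.1. The exception was ITGB4 over ITGA6, the pair of the hemidesmosome, at 1.28 to 1.43 and 1.29 to 1.34, with overlapping ranges and an exact permutation p of 1.0. The log2 ratio of ITGB6 over ITGB5 was not defined in 4 libraries, where ITGB6 was at 0, and was not compared.

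**Figure D3:**
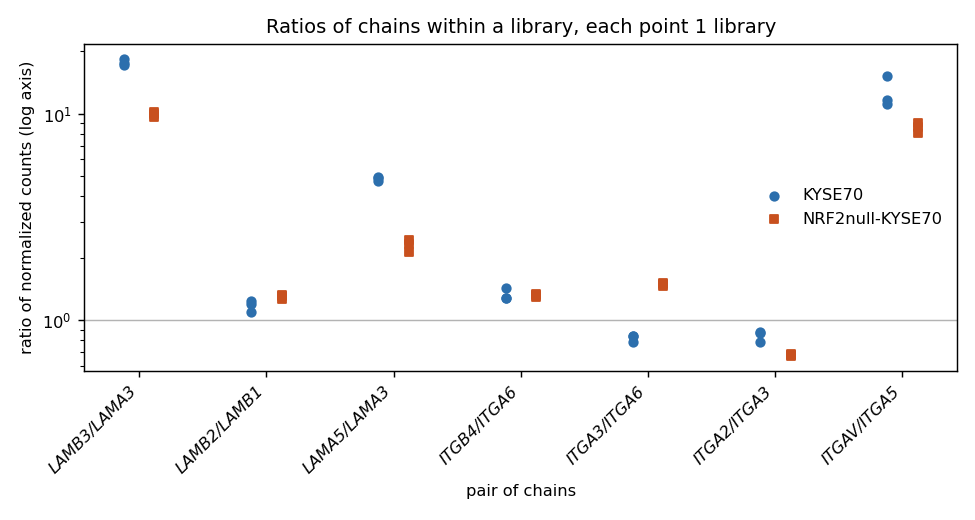
Ratio of the normalized counts of 2 chains within a library on a log axis, with 1 point per library, circles for KYSE70 and squares for NRF2null-KYSE70, and a grey line where the chains are equal. The circles and squares separate for 6 of the 7 pairs and share a range for ITGB4 over ITGA6.

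Levels were compared between genes as normalized counts per kilobase of merged exons. Within the integrin alpha chains of KYSE70, ITGA6 held the largest share of the summed level per kilobase, 35.3% ± 0.548 (SD, n = 3), followed by ITGA2 (20.7%) and ITGA3 (19.8%), whose library ranges overlapped, and then by ITGAV (11.8%), ITGAE (8.70%) and ITGA5 (2.47%). In NRF2null-KYSE70 the share of ITGA3 was 29.7% ± 0.439 and that of ITGA6 29.2% ± 0.479 (SD, n = 3), with overlapping ranges, ahead of ITGA2 (24.9%) and ITGAV (9.78%), while ITGAE (3.13%) and ITGA5 (2.99%) overlapped. ITGA3 thus drew level with ITGA6 on this scale. With the length of the canonical transcript in its place, ITGA3 and ITGA6 had 25.6% and 26.2% in KYSE70 and 38.1% and 21.5% in NRF2null-KYSE70, and ITGAV (20.9%) was above ITGA2 (13.4%) in KYSE70, so the order of the alpha chains in both lines depended on the length used. Of the beta chains, ITGB5 went from 23.0% ± 0.844 to 32.3% ± 0.263 (SD, n = 3) and ITGB8 from 8.53% to 4.79%. ITGB1 had 36.9% and 33.4%, and ITGB4 had 31.5% and 29.3% with overlapping library ranges. With the canonical length ITGB1 had 63.0% and 59.2%, ITGB4 15.8% and 15.3%, ITGB5 14.8% and 21.6% and ITGB8 6.31% and 3.68%, so the shares depended on the length while ITGB5 was larger and ITGB8 smaller in NRF2null-KYSE70 by either.

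LAMB3 held 80.7% to 81.6% of the beta chains in the KYSE70 libraries and 89.4% to 90.5% in those of NRF2null-KYSE70, and LAMB2 (mean 14.4% and 7.81%) and LAMB1 (4.53% and 2.22%) held most of the rest. Of the alpha chains, LAMA5 held 51.4% and 49.9%, LAMA1 38.0% and 27.9%, and LAMA3 10.5% and 21.4%. With the canonical length LAMB1 had 11.8% and 6.03%, close to LAMB2 at 13.8% and 7.79%, and LAMA5 (45.5%) and LAMA1 (44.3%) overlapped in KYSE70.

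**Figure D4:**
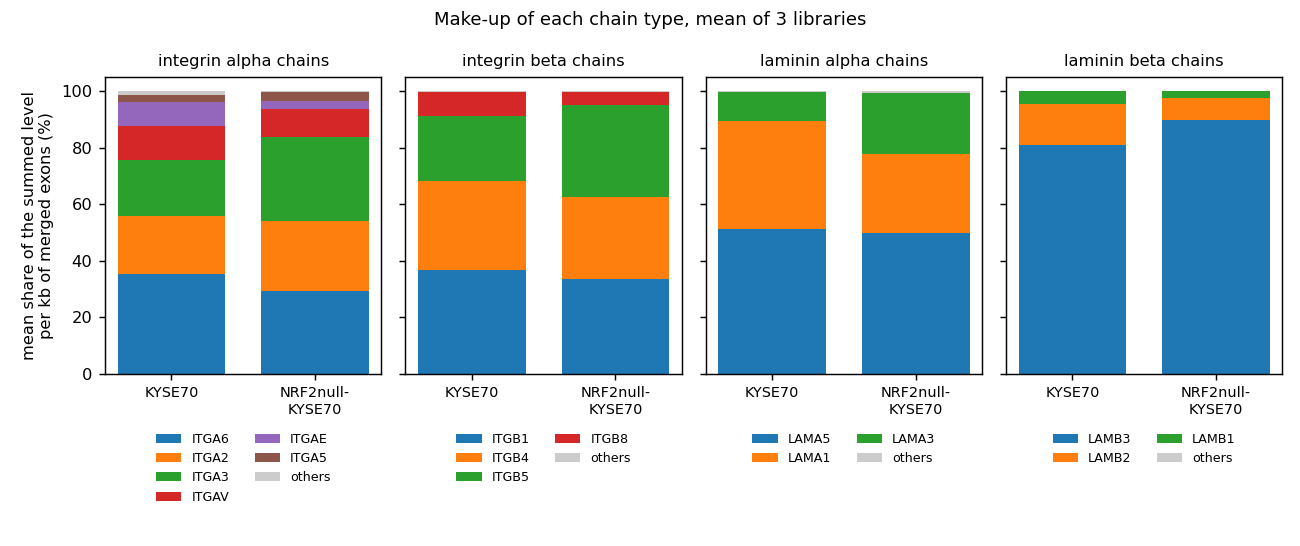
Mean share in percent of each chain in the summed normalized count per kilobase of merged exons of its chain type, with 1 stacked bar per line as the mean of 3 libraries and 1 panel for each of 4 chain types, genes under 1% in both lines being joined as others. ITGB5 goes from 23.0% to 32.3% of the beta integrins, ITGA3 from 19.8% to 29.7% of the alpha integrins and LAMA3 from 10.5% to 21.4% of the alpha laminins.

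The values of neighbouring genes and of single libraries moved with some of these results. The median log2 fold change of the 40 nearest tested genes was -0.60 for ITGA5 and LAMB2, -0.71 for ITGA7, 0.45 for ITGB2, 0.44 for ITGB5, 0.38 for LAMA1, 0.26 for LAMC1 and -0.27 for LAMA5. Subtracting it moved ITGA7 from -1.02 to -0.31, LAMB2 from -0.95 to -0.35, LAMA1 from -0.56 to -0.94 and ITGAE from -0.31 to -0.16, and moved the members' median from 0.85 to 0.62. ITGA3 was at 1.84 after the subtraction. The part of the chromosomal neighbourhood in these differences was not tested further. The first library of a line held the highest value of that line for 18 of the 25 tested members (72%) in KYSE70 and for 21 (84%) in NRF2null-KYSE70, beside 36.3% and 40.8% of all tested genes. Without the first library of both lines, 10 members passed both cut-offs, 13 were higher and 8 were lower, LAMA5 being the added one.

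Genes that work with the integrins and laminins were read from lists written from general knowledge, with earlier results of these data known. The hemidesmosome partners were divided: of 6 genes, 3 were higher and 2 lower, with a median log2 fold change of 0.60. The cytoskeletal linker PLEC (1.36, standard error 0.138, adjusted p = 3.01e-06 by limma), the transmembrane collagen COL17A1 (1.20, standard error 0.0726, adjusted p = 2.40e-08 by limma) and, from a low level, the basal keratin KRT14 (1.74, standard error 0.304, adjusted p = 0.000316 by limma) were higher. The linker DST (-0.50) and KRT5 (-0.75) were lower, and the tetraspanin CD151, which binds ITGA3 and ITGA6, was not called (log2 fold change 0.00, limma adjusted p = 0.989). Of 14 tested basement membrane components among 20 listed, 9 were higher and 2 lower, with a median of 0.59. The collagen COL4A1, a network-forming chain, was higher (1.57, limma adjusted p = 6.40e-08), whereas NID1, which links laminin to that network (-1.81, limma adjusted p = 7.21e-05), and COL7A1, the collagen of anchoring fibrils (-1.83, limma adjusted p = 1.41e-07), were lower.

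Of 20 tested matrix ligands of integrins among 28 listed, 14 were higher and 5 lower, and 12 passed both cut-offs, with a median log2 fold change of 0.88. The matricellular proteins CCN1 and CCN2 and the fibrillar collagen COL3A1 changed most. CCN1 had 1155, 1079 and 1139 normalized counts in KYSE70 and 16328, 15363 and 14643 in NRF2null-KYSE70 (log2 fold change 3.78, limma adjusted p = 1.20e-13). CCN2 had 10.7, 13.6 and 11.6 normalized counts against 1648, 1543 and 1355 (6.87, limma adjusted p = 9.51e-12), and COL3A1 had 282, 212 and 276 against 7.10, 6.86 and 11.4 (-4.79, limma adjusted p = 2.63e-08). COL3A1 and COL1A1 (-1.16) were also on the list of fibroblast markers, of which COL1A2, DCN and FAP were at 0 in all libraries. The fibronectin gene FN1, ligand of the receptor that contains ITGA5, was at 7.38 to 23.6 normalized counts over the 6 libraries and was not called (limma adjusted p = 0.93).

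Of 35 tested genes of integrin activation and focal adhesions among 38 listed, 20 were higher and 7 lower, with a median log2 fold change of 0.32. The adaptors PXN (1.33, limma adjusted p = 4.47e-10), ZYX (1.75, limma adjusted p = 1.05e-06) and LIMS2 (2.05, limma adjusted p = 8.23e-07) passed both cut-offs. Another list of 15 genes joined tetraspanins with laminin receptors that are not integrins, and also held CD44, CD47 and SLC3A2. Of its 14 tested genes, 6 were higher and 6 lower, with a median of -0.04, and the syndecan SDC4 passed both cut-offs (1.04, limma adjusted p = 5.71e-08). Of 11 chaperones and proteases that fold or cut these chains, 8 were higher and 2 lower, with a median of 0.42. PCSK5, a convertase (1.32, limma adjusted p = 1.23e-07), and TLL1, a protease of the BMP1 family (-1.13, limma adjusted p = 2.25e-08), passed both cut-offs in opposite directions. These lists were described by their counts beside those of all tested genes (29.3% higher and 28.3% lower), and no set test was made.

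**Figure D5:**
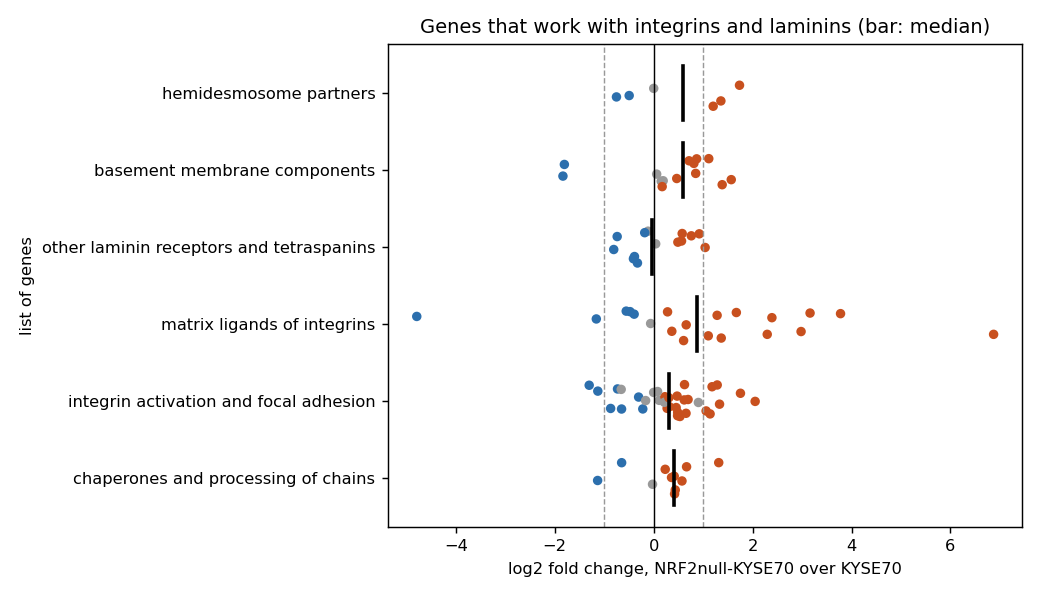
Log2 fold change of each tested gene on the horizontal axis for the 6 lists of genes that work with integrins and laminins on the vertical axis, with orange points higher, blue points lower and grey points not called at an adjusted p of 0.05, a black bar at each median and dashed lines at 1 and -1. The median lies at 0.88 for matrix ligands, where CCN2 at 6.87 and COL3A1 at -4.79 are the ends of the range.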

How the data were processed

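Total RNA of the cells was made into 3 libraries of KYSE70 and 3 of NRF2null-KYSE70. The authors aligned reads with STAR (2.6.90c) to hg38 and counted them with featureCounts (1.5.1); the methods name a RefSeq annotation, but the table lists Ensembl identifiers, of which 58472 were found in GENCODE v44. Use of strand and treatment of reads with several alignments were not given in the sources used here. The deposited values are a signal, counts that the authors divided by DESeq2 size factors. Columns carry the line but no replicate number, so libraries are numbered by column order. Whole reads were recovered for 100% of values in every library (tolerance 0.01 of a read).

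Genes with a mean of at least 10 were tested with limma 3.58.1 (eBayes with trend, R 4.3.3) on log2(normalized count + 1), which understates changes of low genes; tests were two-sided, with Benjamini-Hochberg adjustment over the 15994 genes. The cut-offs were those of the study. Limma called 2344 genes past both cut-offs, DESeq2 1.42.0 on the recovered reads 2341 and edgeR 4.0.16 2350. All members but 1, which counts in the totals but is not reported here, are named, per-library values are given for those past both cut-offs with a mean of at least 100 and for chains in the ratios, and up to 3 genes past both cut-offs per list; other genes were chosen after their values were seen. Of 149 listed symbols, 2 (CCN1 and CCN2) were matched by gene ID. Members and lists were chosen with earlier results of these data known. Scripts were tested on simulated data. Promoters came from RefSeq. Alternatives were pseudocounts of 0.1 and 5, no filter or a minimum of 50, scaling by quantiles, by TMM or to the total, limma with no variance trend, DESeq2, edgeR, each library left out, and subtraction of the neighbours' median. The removal of GC and length trends, the canonical length and leaving out library 1 of both lines were chosen after seeing the data.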

Additional observations from a re-analysis of the deposited data

How the results depend on the processing

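Of 473 values of members under 19 alternatives, 460 kept the direction and the side of the threshold of the reported value. Removing GC and length trends and subtracting the neighbours' median changed only the fold change and kept the adjusted p of the main fit. Under those alternatives a call could not be gained or lost, so they say nothing about the numbers called higher or lower. The number of members past both cut-offs was between 9 and 12, the number higher between 13 and 14 and the number lower between 6 and 8. Directions turned only among members that were not called: ITGA1 to 0.18 without NRF2null-KYSE70 library 2 (range over the libraries left out -1.37 to 0.18), LAMB3 to -0.036 with quantile normalization and to -0.015 without NRF2null-KYSE70 library 1 (range -0.015 to 0.16), and, after subtraction of the neighbours' median, ITGB8 to -0.086 and LAMA5 to 0.11. The difference in the log2 ratio of ITGB4 over ITGA6, NRF2null-KYSE70 minus KYSE70, was -0.0090 with all libraries. With 1 library left out this difference was between -0.036 and 0.045. It turned to 0.045 without KYSE70 library 1 and to 0.0070 without NRF2null-KYSE70 library 2. LAMA5 was called lower with quantile normalization (adjusted p = 0.0148), total scaling (adjusted p = 0.0232), without NRF2null-KYSE70 library 1 and without library 1 of both lines (adjusted p = 0.000634), and the cause was not tested. Total scaling moved the median of all genes by -0.08, and the members' median was then 0.77. No paired analysis was possible because the columns carry no replicate number. Depth limits the 13 untested members, of which 5 had at most 3 reads in every library.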
